A study of Mus musculus with 9 samples.

Results

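Sertoli cell genes are described here in RNA-seq libraries of a germ cell line that was co-cultured with testicular somatic cells. The members were given as 8 gene symbols, Amh, Amhr2, Sox9, Wt1, Gata4, Cldn11, Clu and Aard, and all 8 were found among the 46078 gene identifiers of the count data. They cover a hormone and its receptor, transcription factors, a junction protein, a secreted protein and a gene best known as a testis marker.

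The study sorted EGFP-SSCs, a wild-type (WT) mouse line of spermatogonial stem cells (SSCs) that carries enhanced green fluorescent protein, and sequenced poly-A RNA of 3 biological replicates per time point, 0 h, 24 h and 48 h. The 0 h group is the line in normal culture, on embryonic fibroblasts stopped with mitomycin C, in a StemPro medium with GDNF, basic fibroblast growth factor, epidermal growth factor, estradiol, progesterone and a little serum. The 24 h and 48 h groups were mixed 1:1 with somatic cells from busulfan-exposed testes of mice aged 3 to 7 days, in α-MEM with serum replacement, BMP-4 and BMP-7, retinoic acid, activin A, testosterone, follicle-stimulating hormone (FSH) and BPE, and EGFP-positive cells were sorted afterwards. All groups share the 1 line, and the labels do not say whether the replicates came from separate cultures, so the p-values measure the spread between these libraries, which may be technical. The somatic cells and the new medium were introduced together after 0 h, and their parts in any change from 0 h cannot be told apart.

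Sertoli cells are the supporting cells of the seminiferous tubule. They surround the germ cells, seal the tubule with tight junctions, and send hormones and growth factors to germ cells, Leydig cells and the pituitary. In the fetal testis SOX9 sets the Sertoli fate, and WT1, GATA4 and SF1 (the product of Nr5a1) act with it on genes such as Amh. Immature Sertoli cells secrete anti-Müllerian hormone (AMH) in large amounts and stop doing so as they mature.

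The libraries held 16825251 to 22201892 counts. Replicates of a group differed by more than sampling noise (chi-square per degree of freedom 7.13 to 81.4), and no library was treated as a copy of another. The libraries are labelled as SSCs, and the germ cell markers Ddx4, Dazl, Mael, Tdrd1, Piwil2 and Dnd1 together gave a level of 1820 to 2801.8 CPM in the 0 h libraries, 2391 to 2535.4 CPM in the 24 h libraries and 2525.7 to 2697.5 CPM in the 48 h libraries. CPM are counts relative to the library's total, normalized by TMM. Differences were tested with edgeR's quasi-likelihood test in the 6 libraries of each pair of groups, and a gene was called at an adjusted p of up to 0.05 over all genes tested. Of all genes, 11.4% were called higher and 14.2% called lower from 0 h to 24 h. The shares were 13.0% and 18.5% from 0 h to 48 h, and 8.61% and 12.7% from 24 h to 48 h. With normalization by library size alone, the median log2 fold change of all genes moved to 0.118 and 0.127 from 0 h to 24 h and to 48 h, and the share of calls that were higher moved from 44.5% to 57.1% and from 41.2% to 52.8%. The 8 genes kept their directions from 0 h under each scaling.

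The 8 genes did not follow a single course. In the 24 h libraries 6 were higher and 2 lower than in the 0 h libraries. In the 48 h libraries 6 were higher, 0 were lower and 2 were not called. Between 24 h and 48 h, 2 rose (Clu and Amhr2), 1 fell (Amh) and 5 were not called. The median log2 fold change of the 8 genes was 2.56 for the step from 0 h to 24 h, 2.68 for 0 h to 48 h and 0.33 for 24 h to 48 h, where the medians of all genes tested were 0.01, 0.02 and -0.0. Amh and Cldn11, with at most 4 and 8 counts in any 0 h library, passed the filter on low counts through their later libraries, so a difference was built into their selection.

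**Figure D1:**
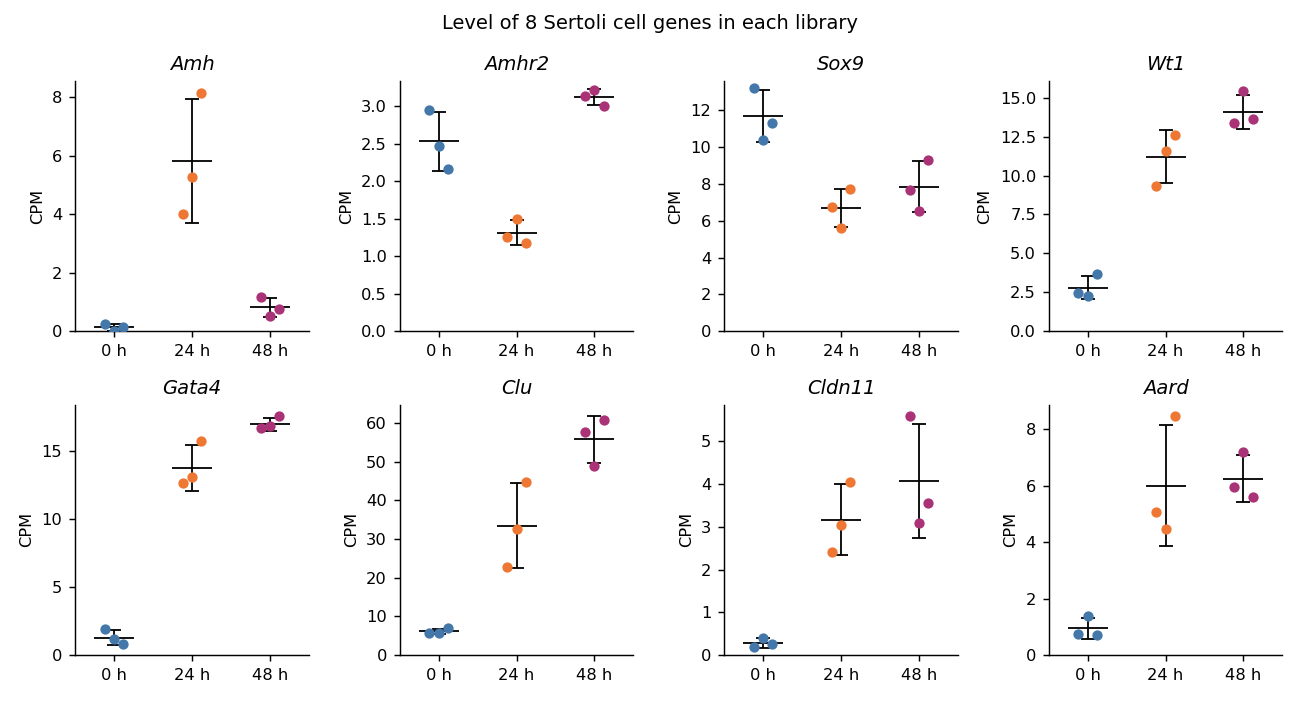
Level of each of the 8 genes in CPM (vertical axis, from 0, with its own scale in each panel) in the 3 libraries of each time point (points), with mean and SD (horizontal line and bars). Amh was high only in the 3 libraries of 24 h, at 4.02 to 8.14 CPM, and Clu reached 49.0 to 60.9 CPM at 48 h.

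Amh, the gene of the hormone that makes the Müllerian ducts regress, was the member with a peak at 24 h. It lies at chr10:80805243-80807648 on the plus strand of GRCm38 (ENSMUSG00000035262) in 5 exon blocks, and no exon of another annotated gene overlaps it. It had 4, 0 and 3 counts in the 0 h libraries, 80, 99 and 167 in the 24 h libraries, and 23, 12 and 15 in the 48 h libraries. As a level this was 0.246, 0 and 0.151 CPM at 0 h, 4.02, 5.28 and 8.14 CPM at 24 h, and 1.18, 0.529 and 0.751 CPM at 48 h. The 3 groups did not overlap, and each 48 h library lay between the highest 0 h library and the lowest 24 h library.

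Summed over libraries, 7 counts of Amh at 0 h stood against 346 at 24 h, a ratio of levels of 47.1 with a 95% interval of 22.6 to 118 that covers counting error only. The fitted log2 fold change was 5.46 (SE 0.65, adjusted p = 0.000967). Over the hours to 48 h the log2 fold change was -2.83 (SE 0.36, adjusted p = 0.00116), a level 7.10-fold lower. The 48 h libraries were still above 0 h, by 2.64 on the log2 scale (SE 0.78, adjusted p = 0.0377), but this call rests on single libraries. It was kept without 0 h replicate 1 (3.36, adjusted p = 0.0258). It was lost without 0 h replicate 2 (2.03, adjusted p = 0.0698), 0 h replicate 3 (2.82, 0.0564), 48 h replicate 1 (2.28, 0.141), 48 h replicate 2 (2.88, 0.0659) or 48 h replicate 3 (2.69, 0.101). The size of the rise at 24 h also moved with the few 0 h counts, to 6.18 without 0 h replicate 1 and 4.85 without 0 h replicate 2, with the call kept in both.

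The gene upstream of Amh on the same strand is Sf3a2, a splicing factor gene that ends 319 bases before Amh starts. Its mean level in the 0 h, 24 h and 48 h libraries was 99.9 ± 40.7, 102 ± 13.0 and 93.3 ± 16.5 CPM (SD, n = 3), and its libraries overlapped between the groups in each comparison. It was called in none of the 3 comparisons by edgeR (log2 fold changes 0.04, -0.09 and -0.12, adjusted p = 0.95, 0.859 and 0.516).

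Amhr2 encodes the type II receptor of AMH, a kinase that Sertoli cells, Leydig cells and the mesenchyme of the Müllerian ducts use to read the hormone. Its course was the reverse of that of Amh, with a low at 24 h. The 0 h libraries held 48, 50 and 43 counts (2.95, 2.47 and 2.16 CPM), the 24 h libraries 25, 28 and 24 (1.26, 1.49 and 1.17 CPM), and the 48 h libraries 61, 73 and 60 (3.13, 3.22 and 3.0 CPM). Each 24 h library lay under each library of the other groups.

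The rise of Amhr2 from 24 h to 48 h was 1.26 on the log2 scale (SE 0.22, adjusted p = 0.00423), a level 2.39-fold higher, and it was called under each of the 13 alternative settings. The fall from 0 h to 24 h was -0.95 (SE 0.27, adjusted p = 0.0365). That call was kept without 0 h replicate 3 but lost without 0 h replicate 1 (-0.81, adjusted p = 0.0727), 0 h replicate 2 (-0.97, 0.0873), 24 h replicate 1 (-0.92, 0.127), 24 h replicate 2 (-1.06, 0.0825) or 24 h replicate 3 (-0.87, 0.127). It was also lost with normalization by library size alone (-0.84, adjusted p = 0.0559), with no filter on low counts (-0.95, 0.0729) and with the replicate number as a block (-0.94, 0.0978). At 48 h Amhr2 did not differ detectably from 0 h, with a log2 fold change of 0.31 and a 95% interval of -0.22 to 0.83 (adjusted p = 0.343).

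Of the 8 genes, 2 had an entry in the RefSeq table of promoters (GRCm38.p6), Amhr2 and Cldn11. They are shown because they moved in opposite directions from 0 h to 24 h. Each window is the 250 bases before the gene's start, for Amhr2 chr15:102445117-102445366 and for Cldn11 chr3:31149670-31149919, both on the plus strand. Capitals mark matches to the motifs searched on both strands, which were AAGGTCA for the factor SF1 and GCGTGGG for the factor WT1. The GATA factors were given the letters AGATAA, or with another last base AGATAG, or with another leading base TGATAA, or with both changes TGATAG. The SOX factors were given AACAAT or, in its longer form, AACAAAG. The general motifs CCAAT and, for the TATA box, TATAAA were also searched.
Amhr2: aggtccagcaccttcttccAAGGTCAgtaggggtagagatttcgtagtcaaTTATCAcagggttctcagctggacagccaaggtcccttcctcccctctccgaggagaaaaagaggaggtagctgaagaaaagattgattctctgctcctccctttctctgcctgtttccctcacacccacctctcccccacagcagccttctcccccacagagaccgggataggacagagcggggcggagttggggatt
Cldn11: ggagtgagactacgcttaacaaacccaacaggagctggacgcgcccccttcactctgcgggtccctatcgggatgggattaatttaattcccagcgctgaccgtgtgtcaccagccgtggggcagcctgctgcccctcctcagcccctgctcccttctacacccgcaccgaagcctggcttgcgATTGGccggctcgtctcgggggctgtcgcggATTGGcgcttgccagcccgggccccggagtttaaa

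The Amhr2 window held the SF1 motif AAGGTCA, which starts at -231 from the gene's start and is in 4.1% of the 32851 windows of the table. It also held TTATCA, which is on the other strand a motif of the GATA factors, at -199. A GATA motif is in 26.5% of all windows. The Cldn11 window held CCAAT on the other strand (ATTGG) at -66 and -35, a motif found in 33.8% of all windows. The SOX (13.8% of windows), WT1 (4.3%) and TATA (12.4%) motifs were in neither window. These are matches of letters, not measured binding sites.

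Among the transcription factors, Wt1 and Gata4 rose while Sox9 fell. Sox9, the gene of the factor that sets the Sertoli fate (chr11:112782224-112787760, plus strand), was already present at 0 h with 215, 211 and 225 counts. Its level was 13.2, 10.4 and 11.3 CPM at 0 h, 6.74, 5.6 and 7.7 CPM at 24 h, and 7.69, 6.53 and 9.31 CPM at 48 h. Every later library lay under every 0 h library, and the 24 h and 48 h libraries overlapped.

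The fall of Sox9 from 0 h to 24 h was -0.80 on the log2 scale (SE 0.19, adjusted p = 0.0175), and its call was lost without 24 h replicate 1 (-0.81, adjusted p = 0.0714) or 24 h replicate 2 (-0.69, 0.0773). At 48 h the difference from 0 h was -0.57 with a 95% interval of -1.02 to -0.11 and was not called (adjusted p = 0.0613), although 1 fit over all 9 libraries called it (-0.57, adjusted p = 0.0381). Between 24 h and 48 h the log2 fold change was 0.24, with an interval of -0.17 to 0.64 (adjusted p = 0.379).

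Wt1 encodes a zinc finger factor that Sertoli cells need to keep their identity (chr2:105126529-105173616, plus strand). Its level was 2.46, 2.27 and 3.67 CPM at 0 h, 9.3, 11.6 and 12.6 CPM at 24 h, and 13.4, 15.4 and 13.6 CPM at 48 h. The groups did not overlap at any step. It was 3.98-fold higher at 24 h than at 0 h (log2 fold change 1.99, SE 0.24, adjusted p = 0.00103) and 5.05-fold higher at 48 h than at 0 h (2.34, SE 0.22, adjusted p = 0.000266). The further change from 24 h to 48 h was 0.35 with an interval of 0.05 to 0.64 and was not called after adjustment (adjusted p = 0.0928).

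Gata4 encodes a GATA factor of Sertoli and other gonadal somatic cells (chr14:63198922-63271692, minus strand). The 0 h libraries had 1.91, 1.14 and 0.805 CPM, the 24 h libraries 12.7, 13.1 and 15.8 CPM, and the 48 h libraries 16.7, 16.9 and 17.6 CPM. The groups again did not overlap, and the 48 h libraries lay closest together of the 3 groups. Gata4 was 10.9-fold higher at 24 h (log2 fold change 3.44, SE 0.32, adjusted p = 0.0003) and 13.4-fold higher at 48 h (3.74, SE 0.31, adjusted p = 0.000146) than at 0 h. Its later log2 fold change, 24 h to 48 h, was 0.30 with an interval of 0.06 to 0.55 (adjusted p = 0.0796), and it was called only without 24 h replicate 3, the highest of its group (0.43, adjusted p = 0.0279).

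Clu was the member with a continued rise. It encodes clusterin, a secreted chaperone that Sertoli cells release in large amounts (chr14:65968483-65981547, plus strand). Its level was 5.72, 5.73 and 6.85 CPM at 0 h, 22.8, 32.6 and 44.8 CPM at 24 h, and 57.6, 49.0 and 60.9 CPM at 48 h. The lowest library of each time point lay above the highest of the time point before, and the 24 h libraries were the most spread.

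Clu was 5.48-fold higher at 24 h (log2 fold change 2.45, SE 0.25, adjusted p = 0.000521) and 9.18-fold higher at 48 h (3.20, SE 0.15, adjusted p = 1.5e-05) than at 0 h. The step to 48 h made it 1.68-fold higher (0.75, SE 0.21, adjusted p = 0.0327). This last call was kept without 24 h replicate 3 or 48 h replicate 2. It was lost without 24 h replicate 1 (0.52, adjusted p = 0.06), 24 h replicate 2 (0.73, 0.083), 48 h replicate 1 (0.73, 0.0882) or 48 h replicate 3 (0.67, 0.0986), and in 1 fit over all 9 libraries (0.76, 0.0767).

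Cldn11 encodes claudin-11, a strand-forming protein of the tight junctions between Sertoli cells (chr3:31149920-31164324, plus strand). It had 3, 8 and 5 counts at 0 h, 48, 57 and 83 at 24 h, and 109, 70 and 71 at 48 h. Its level was 0.184, 0.396 and 0.252 CPM at 0 h, 2.41, 3.04 and 4.05 CPM at 24 h, and 5.59, 3.09 and 3.55 CPM at 48 h. The later groups overlapped each other and lay above 0 h. The log2 fold change from 0 h was 3.46 at 24 h (SE 0.39, adjusted p = 0.000705) and 3.83 at 48 h (SE 0.40, adjusted p = 0.000478). Between 24 h and 48 h it was 0.37, with an interval of -0.27 to 1.01 (adjusted p = 0.387).

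Aard, a gene with alanine- and arginine-rich domains that is known as a testis gene (chr15:52040107-52045722, plus strand), reached its later level at 24 h. It had 0.738, 1.38 and 0.705 CPM at 0 h, 5.08, 4.48 and 8.48 CPM at 24 h, and 5.94, 7.19 and 5.6 CPM at 48 h. All 48 h libraries fell inside the range of the 24 h libraries. The log2 fold change from 0 h was 2.66 at 24 h (SE 0.38, adjusted p = 0.00231) and 2.72 at 48 h (SE 0.31, adjusted p = 0.000674), and 0.06 from 24 h to 48 h (95% interval -0.47 to 0.59, adjusted p = 0.888). For 7 of the 8 genes, all but Amhr2, 24 h replicate 3 was the highest of the 24 h libraries.

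**Figure D2:**
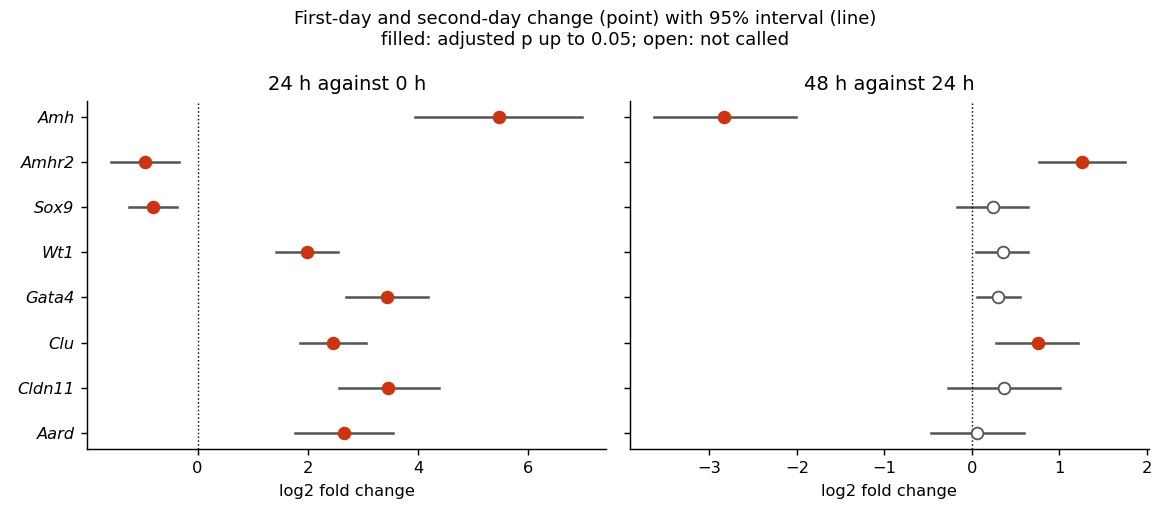
Log2 fold change of each gene (points) with its 95% interval (lines) from 0 h to 24 h (left) and from 24 h to 48 h (right), filled where called and open where not. Between 24 h and 48 h, Amh fell by 2.83, Amhr2 and Clu rose by 1.26 and 0.75, and the other 5 genes lay between 0.06 and 0.37 with no call.

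The courses can be set side by side by their calls. A peak at 24 h, called higher from 0 h to 24 h and lower from 24 h to 48 h, was met by Amh and by 426 (2.49%) of the 17075 genes tested in both comparisons. A continued rise, called higher at both steps, was met by Clu and by 229 genes (1.34%). Amhr2 was called lower and then higher, as were 182 genes (1.07%). Sox9 fell and then had no call, as did 1530 genes (8.96%), and Wt1, Gata4, Cldn11 and Aard rose and then had no call, as did 1347 genes (7.89%).

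Ratios within a library do not depend on normalization between libraries. For each 100 counts of Wt1, Amh had 10, 0 and 4.11 counts in the 0 h libraries, 43.2, 45.6 and 64.5 in the 24 h libraries, and 8.78, 3.44 and 5.51 in the 48 h libraries. Per 100 counts of Clu, Amh had 17.6, 16.2 and 18.2 counts at 24 h and 2.05, 1.08 and 1.23 at 48 h. Against both genes, every 48 h ratio of Amh lay below every 24 h ratio. The ratio of Gata4 to Wt1 stayed in a narrow range over these hours, at 136, 113 and 125 counts of Gata4 per 100 of Wt1 at 24 h and 124, 109 and 129 at 48 h. That of Clu to Wt1 was 245, 282 and 355 at 24 h and 429, 318 and 447 at 48 h, with overlap between the groups.

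On the log2 scale, the ratio of Amh from 24 h to 48 h changed by -3.59 against Clu, -3.15 against Wt1, -3.11 against Gata4, -3.15 against Cldn11 and -2.91 against Aard. In none of these 5 pairs did the groups overlap. The exact two-sided permutation test gave p = 0.1 for each pair, 0.1 after Benjamini-Hochberg adjustment over the 5 pairs, which is the smallest p that 3 libraries against 3 allow. The pairs were chosen after the values were seen.

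**Figure D3:**
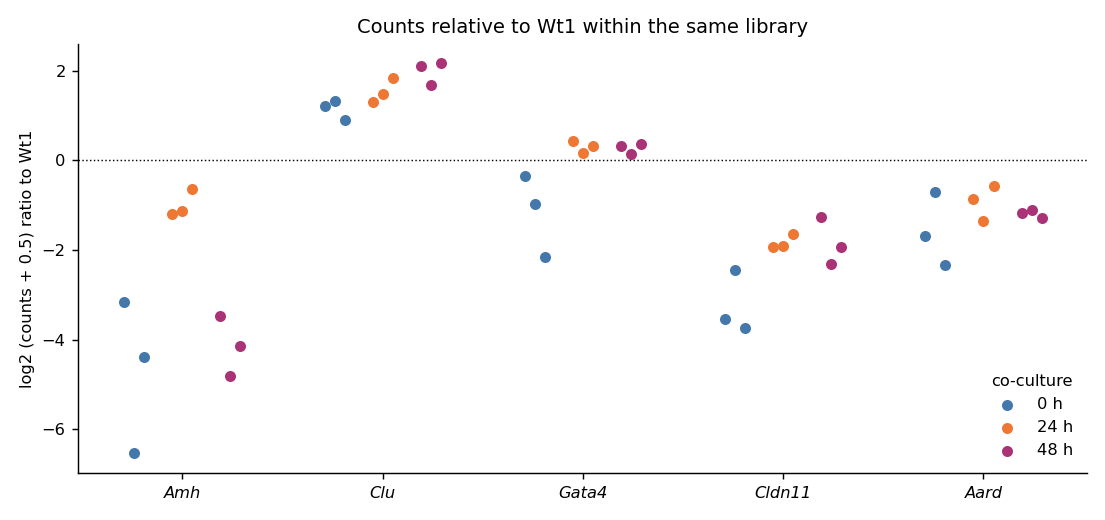
Log2 ratio of the counts of 5 genes to those of Wt1 in the same library (0.5 added to each count), with 1 point for each of the 9 libraries, coloured by time. The Amh ratios of the 3 libraries of 24 h, with a mean of -0.99, lie above those of 48 h, with a mean of -4.14, while the Gata4 ratios of 24 h and 48 h lie together.

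Levels were compared between the genes only per length, as CPM per kb of the union of their exons. At 0 h Sox9 led with 2.82 ± 0.344 CPM per kb (SD, n = 3), before Clu with 1.77 ± 0.188 and Amhr2 with 1.26 ± 0.197. These libraries did not overlap from one gene to the next. Then followed Aard, Wt1, Gata4, Cldn11 and Amh, from 0.699 down to 0.0792, each overlapping its neighbour. At 24 h Clu led with 9.72 ± 3.2, followed by Aard, Gata4 and Amh (4.46, 3.55 and 3.48), which overlapped. Below them came Wt1, Cldn11 and Sox9 (1.8, 1.69 and 1.62), also overlapping, and Amhr2 with 0.652. At 48 h Clu stood at 16.2 ± 1.78, Aard and Gata4 followed with 4.63 and 4.36, and Amh was the lowest, at 0.491 ± 0.198, with no overlap with Amhr2 as its neighbour at 1.55. Amh was thus among the leading 4 genes at 24 h by this length, and the lowest at 48 h. With the longest transcript as the length, Clu rose to 3.37 CPM per kb at 0 h, above Sox9, and Wt1 to 0.907, 3.61 and 4.58 at the 3 times, beside Gata4 (4.07 at 24 h and 5.01 at 48 h). By that length the mean of Wt1 stood above that of Amh (3.48) at 24 h, which puts the mean of Amh behind Clu, Aard, Gata4 and Wt1. The Wt1 libraries lay inside the range of the Amh libraries, so the order of these genes is not settled. Clu and Sox9 also overlapped at 0 h by that length. Amh was again the lowest at 48 h.

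The 5 genes that rose and stayed high, Clu, Wt1, Gata4, Cldn11 and Aard, followed each other across the 9 libraries, with Pearson's r of log2 CPM between 0.93 and 0.98. Amh had r of 0.66 to 0.76 with them. Sox9 had r of -0.72 to -0.81 with them, and Amhr2 of -0.05 to -0.25. These values are a description, since the 9 libraries fall into 3 time points and share them.

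Among 15709 genes with a mean of at least 1 CPM, those most like each member over the 9 libraries were taken by the same r. For Amh they were Rbks (ribokinase, r = 0.981), Selenbp1 (a selenium-binding protein, 0.977) and C3 (complement component, 0.976). Selenbp1 averaged 1.03, 6.22 and 1.8 CPM at 0, 24 and 48 h and C3 33.3, 59.7 and 47.0 CPM. For Amhr2 they were Tiprl (0.989), Grhl2 (an epithelial transcription factor, 0.984) and Aff3 (0.945), the last with 61.8, 32.5 and 63.8 CPM. For Sox9 they were Gm10250 (a pseudogene, 0.992), Slc25a13 (a mitochondrial carrier, 0.976) and Nup43 (a nuclear pore component, 0.973).

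For Wt1 the leading genes were Slc6a2 (the noradrenaline transporter, 0.996), Nkx1-1 (a homeobox gene, 0.996) and Rhob (a small GTPase, 0.993). For Gata4 they were Pdlim3 and Phldb2 (both 0.997) and Fbn1 (fibrillin of the extracellular matrix, 0.996), which averaged 21.1, 86.8 and 105 CPM. For Clu they were Gm22918 and Gm25287 (both annotated as miRNA genes, 0.994 and 0.993) and Syde1 (0.992). For Cldn11 they were Gm21451 (a pseudogene, 0.997), Aldh1a1 (0.991) and Slc41a3 (0.99), and for Aard Gm41 (a pseudogene, 0.996), Sh3bp5 (0.987) and Clcn4 (0.986). Reads of the pseudogenes may come from near-identical copies, so their values are uncertain. The miRNA genes Gm22918 and Gm25287 are uncertain too, with means of 0 CPM at 0 h, 1.79 and 0.995 CPM at 24 h and 3.8 and 2.04 CPM at 48 h. Their r rests in part on 0 h libraries at the floor. An r of at least 0.95 was reached by 198 to 418 genes for each of the 5 genes that rose and stayed high, but by 19 for Amh, 7 for Sox9 and 2 for Amhr2.

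A wider list of 36 other genes known from Sertoli cells gave the surroundings of the 8. From 0 h to 24 h, 12 of its 27 tested genes rose, 9 fell and 6 were not called, with a median log2 fold change of 0.47. From 0 h to 48 h, 16 of 27 rose, 9 fell and 2 were not called (median 1.11). Over 24 h to 48 h, 4 of 28 rose, 3 fell and 21 were not called (median -0.12). Of all genes tested, 11.4%, 13.0% and 8.61% were called higher in these 3 comparisons, and 14.2%, 18.5% and 12.7% lower. The counts of the list from 24 h to 48 h lie near these shares. Nr5a1, Inhba, Gdnf, Dhh, Cst12, Lhx9, Defb19 and Hsd17b1 had at most 8 counts in any 0 h library, and Mro had 1 to 13. They passed the filter through their later libraries, as Amh and Cldn11 did, so their calls from 0 h carry the same built-in difference. Rhox5 went the other way, with 15 to 73 counts at 0 h, 6 to 9 at 24 h and 3 to 5 at 48 h. It passed through its 0 h libraries, as Defb36 did against 48 h (39 to 64 and 7 to 15 counts). A difference was thus built into their called falls as well. None of the 36 met the calls of a peak at 24 h, but 9 were not tested from 0 h to 24 h and 8 not from 24 h to 48 h. Dhh and Aldh1a1 had a continued rise, and Sox8, Krt18 and Espn a continued fall. Among the 10 genes that rose and then had no call, Cst12 and Gja1 changed most downward from 24 h to 48 h (-0.77 and -0.63, adjusted p = 0.107 and 0.112). Inhba changed most upward (0.60, adjusted p = 0.0513).

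Among the transcription factors and nuclear receptors of this list, Nr5a1 (SF1, also a gene of Leydig and adrenal cells) had 2 to 4 counts in the 0 h libraries, 83 to 134 at 24 h and 69 to 90 at 48 h. Where Amh fell, from 24 h to 48 h, Nr5a1 changed by -0.42 (adjusted p = 0.186). Sox8, a relative of Sox9, fell with it, from 20.3 to 7.72 and 4.75 CPM, and its fall was also called from 24 h to 48 h (-0.69, adjusted p = 0.0275). Gata1 fell from 2.12 to 1.07 CPM at 24 h (-0.99, adjusted p = 0.0329), where Gata4 rose.

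Among hormones, ligands and receptors, the inhibin α gene Inha rose from a mean of 0.772 CPM to 24.2 and then 21.3 CPM (log2 fold change from 0 h 4.97 and 4.79, adjusted p = 9.9e-05 and 1.61e-05). Inhba, the gene of the βA subunit shared by inhibin A and activin A, had 0 to 7 counts in the 0 h libraries, 145 to 162 at 24 h and 207 to 286 at 48 h. The βB subunit gene Inhbb fell from 28.8 to 11 and 8.79 CPM (-1.38 and -1.70). Dhh, the hedgehog ligand that Sertoli cells send to Leydig cells, had at most 2 counts in a 0 h library. Computed against the floor of 3 counts per library, it rose at least 6.01-fold to 24 h and at least 16.1-fold to 48 h. It went on rising from 24 h to 48 h (1.43, adjusted p = 0.0109). Gdnf, the gene of the niche factor of SSCs, had 1 to 6, 28 to 41 and 19 to 35 counts at the 3 times. Fgf9, an early testis ligand, fell from 29.5 to 4.22 and 2.93 CPM. Fshr, the FSH receptor that marks Sertoli cells, had 0 counts in each 0 h library and at most 2 in any later one.

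Among junction and cytoskeletal genes, 2 of 5 were called higher and 3 lower than 0 h at both later times. Gja1, the gene of the gap junction protein connexin 43, rose from 2.62 CPM to 8.74 at 24 h and 5.63 at 48 h, and Cdh2 (N-cadherin) from 23.4 to 32.5 and 35.5. The tight junction gene Ocln fell from 78.7 to 22.6 and 23.6 CPM (-1.80 at 24 h, adjusted p = 0.000115), where Cldn11 rose. Krt18, a keratin of immature Sertoli cells, fell from 10.8 to 3.07 and 1.22 CPM, and Espn, an actin bundler, from 34.3 to 20.4 and 10.9 CPM.

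Of the secreted proteins and enzymes, Trf (transferrin) fell from 32.2 CPM to 1.13 and 0.901 (-4.82 and -5.14, adjusted p = 3.83e-05 and 1.97e-05). Clu, likewise a secreted Sertoli protein, rose in the same libraries. Cst12, with 0 counts in all 0 h libraries, rose at least 8.76-fold to 24 h and at least 5.12-fold to 48 h, computed against the floor. Cyp26b1, which degrades retinoic acid, rose from 1.95 to 18.9 and 18.0 CPM, and Aldh1a1, which makes it, from 0.807 to 21.3 and 34.0 CPM. The further rise of Aldh1a1 from 24 h to 48 h was near the threshold (0.68, adjusted p = 0.049). Mro rose between 24 h and 48 h, from 0.72 to 2.74 CPM (1.92, adjusted p = 0.00241), as did Ctsl, from 149 to 190 CPM (0.35, adjusted p = 0.0069). Cst9, Sostdc1 and Etd had at most 4 counts in any library.

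**Figure D4:**
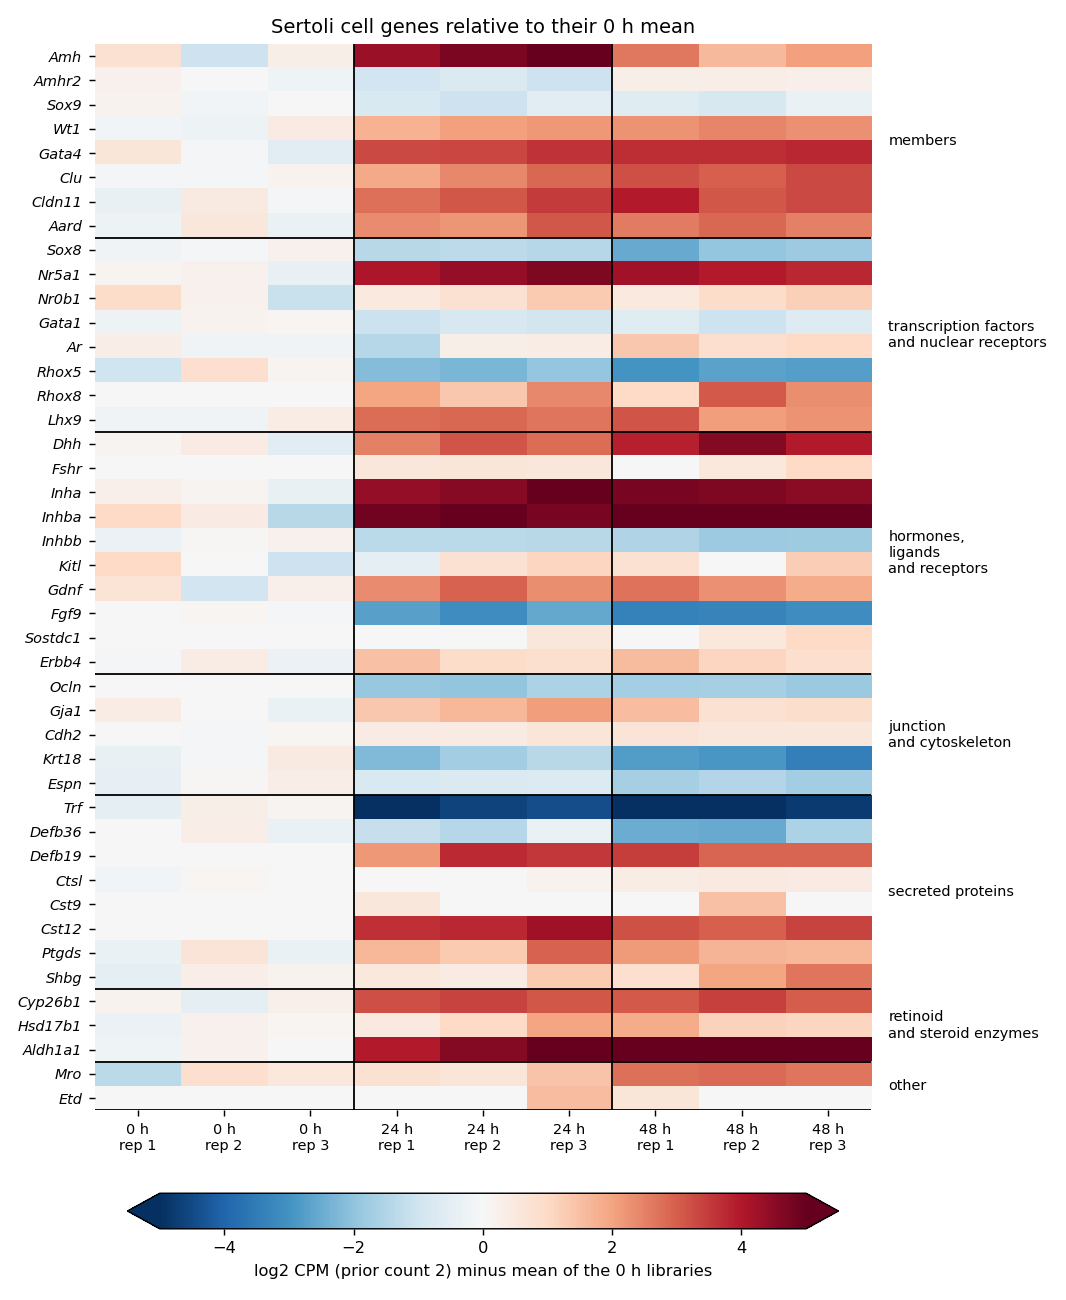
Log2 CPM (prior count 2) of the 8 genes and of the 36 genes of the wider list, by role, in each of the 9 libraries, minus the gene's mean at 0 h (red higher, blue lower, colours end at 5 in either direction). Amh is darkest in the 24 h libraries and paler at 48 h, while Inha, Inhba, Nr5a1 and Aldh1a1 stay dark red at 48 h and Trf, Fgf9 and Krt18 stay blue.

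AMH binds AMHR2, which recruits a type I receptor (ACVR1, BMPR1A or BMPR1B), and the signal passes through SMAD1, SMAD5 and SMAD9 to targets such as the Id genes. This route is shared with the bone morphogenetic proteins, which were in the medium at 24 h and 48 h, and the effects of AMH and BMPs on it cannot be told apart here. Of its 12 genes, 4 rose and 1 fell from 0 h to 24 h, 6 rose and 1 fell from 0 h to 48 h, and 6 rose and 1 fell from 24 h to 48 h (medians -0.05, 0.3 and 0.32). Among all genes, 11.4%, 13.0% and 8.61% rose in these comparisons and 14.2%, 18.5% and 12.7% fell. Id1 averaged 18.3, 61.0 and 135 CPM at 0, 24 and 48 h and Id2 0.845, 17.2 and 56.2 CPM, both called higher at both steps. Id3 rose between 24 h and 48 h, from 62.0 to 126 CPM (1.03, adjusted p = 7.18e-05). Smad9 rose at both steps, from 2.23 to 4.28 and 10.7 CPM. Between 24 h and 48 h Smad5 fell, from 62.1 to 52 CPM (-0.25, adjusted p = 0.0468), and Smad1 was not called (52.8 and 52.9 CPM, log2 fold change 0.01, adjusted p = 0.932). Smad4, their common partner, and Smad7, an inhibitor, rose over these hours (0.23 and 0.43, adjusted p = 0.025 and 0.00771). The type I receptor gene Bmpr1a was called in none of the comparisons by edgeR (139, 121 and 143 CPM, adjusted p = 0.694, 0.949 and 0.079).

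Markers of myoid, stromal and Leydig cells rose in sum from 0 h, as did the sum of the 8 Sertoli cell genes. The wider Sertoli list did not, with sums of 380 to 443 CPM at 0 h, 325 to 402 CPM at 24 h and 389 to 405 CPM at 48 h. These sums rest largely on a few abundant genes. Ctsl alone averaged 143, 149 and 190 CPM and Ocln 78.7, 22.6 and 23.6 CPM at the 3 times. Markers of endothelial cells and macrophages fell in sum, though some of their genes rose. In bulk RNA, more cells of a type and more RNA per cell cannot be told apart, nor can transcripts of the sorted line and of a somatic cell that passed the sort. All 8 Sertoli cell genes together gave 23.8 to 27.4 CPM in the 0 h libraries, 64.3 to 103 CPM in the 24 h libraries and 102 to 114 CPM in the 48 h libraries. Clu alone averaged 6.1, 33.4 and 55.8 CPM at these times. Of the 7 myoid cell markers 6 rose to 24 h and to 48 h from 0 h and 5 rose from 24 h to 48 h, with sums of 16.8 to 20.7, 165 to 230 and 289 to 344 CPM. Acta2, smooth muscle actin, rose from 1.98 to 98.5 and 167 CPM and Tagln, another smooth muscle gene, from 5.02 to 57.3 and 89.9 CPM. Of the 9 stromal markers 7 rose at each time from 0 h, and from 24 h to 48 h 5 rose and 1 fell, with sums of 260 to 352, 2154.3 to 2428.1 and 2787.2 to 3050.6 CPM. The collagen genes Col1a1, Col1a2 and Col3a1 had means of 157, 79.1 and 33.9 CPM at 0 h, 1118.7, 701 and 357 CPM at 24 h and 1394.4, 939 and 475 CPM at 48 h, each called higher at both steps. From 24 h to 48 h the sums of both lists rose, though the stromal gene Pdgfra fell (-0.31, adjusted p = 0.0268). Over the same hours the endothelial sum fell, and the Leydig and macrophage sums overlapped between the times.

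The Leydig cell markers had 4.53 to 6.77 CPM in all in the 0 h libraries, then 25.2 to 38.5 CPM and 25.6 to 31.9 CPM. Of 7 genes 3 were tested, of which 2 rose to 24 h, 3 to 48 h, and 0 were called from 24 h to 48 h. The steroid enzyme gene Cyp11a1 averaged 0.491, 20.9 and 14.5 CPM, with a change from 24 h to 48 h of -0.52 that was not called (adjusted p = 0.0819). Hsd3b1, another steroid enzyme gene, had 0 counts in the 0 h libraries, 51 to 104 at 24 h and 95 to 116 at 48 h. Insl3, the gene of a Leydig cell hormone, had 0 counts in the 0 h libraries and 4 to 6 in the later ones, too few to be tested. Lhcgr, the receptor of luteinizing hormone, had at most 2 counts and Hsd3b6, an adult Leydig cell enzyme gene, at most 1 count in any library. The endothelial markers fell in sum, from 70.0 to 77.4 CPM at 0 h to 29.0 to 37.0 and 21 to 24.5, with 2 of 6 tested genes higher and 3 lower at either later time, and 3 lower from 24 h to 48 h. Vwf fell from 28.6 to 17.0 and 9.67 CPM and Kdr, a receptor of vascular endothelial growth factor, from 24.5 to 4.76 and 2.41 CPM. Tek rose from 1.41 to 3.51 and 4.08 CPM and Tie1 from 0.212 to 0.677 and 0.702 CPM. Emcn had at most 4 counts in any library.

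The macrophage markers also fell in sum, from 17.9 to 21.6 CPM at 0 h to 7.04 to 12.3 and 7.58 to 8.51. Of their 4 tested genes 2 rose and 2 fell to 24 h, and 1 rose and 2 fell to 48 h. The lysosomal gene Cd68, which made up most of the sum, fell from 15.6 to 5.82 and 5.42 CPM, and Mrc1 from 2.96 to 0.099 and 0.0814 CPM. Mrc1 had at most 5 counts in any later library and passed the filter through its 0 h libraries, so a difference was built into its calls. The same holds in the other direction for marker genes near 0 counts at 0 h, such as Hsd3b1. Cd14 rose from 0.609 to 1.64 and 1.68 CPM. Csf1r rose from 0.293 to 1.09 CPM at 24 h (adjusted p = 0.0332) and was not called at 48 h (0.65 CPM). Adgre1 had 1 to 3, 6 to 10 and 1 to 4 counts at the 3 times, and C1qb 0 to 1, 3 to 5 and 0 to 2, too few to be tested. From 24 h to 48 h 0 of 3 were called by edgeR, and C1qa had at most 3 counts in any library. Of the 6 germ cell markers, 1 rose to 24 h, 1 rose and 1 fell to 48 h, and 1 fell from 24 h to 48 h. The counts of all marker lists stand beside the same shares of all genes as the wider Sertoli list. The part of other cell types in the levels of the 8 genes was not tested.

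**Figure D5:**
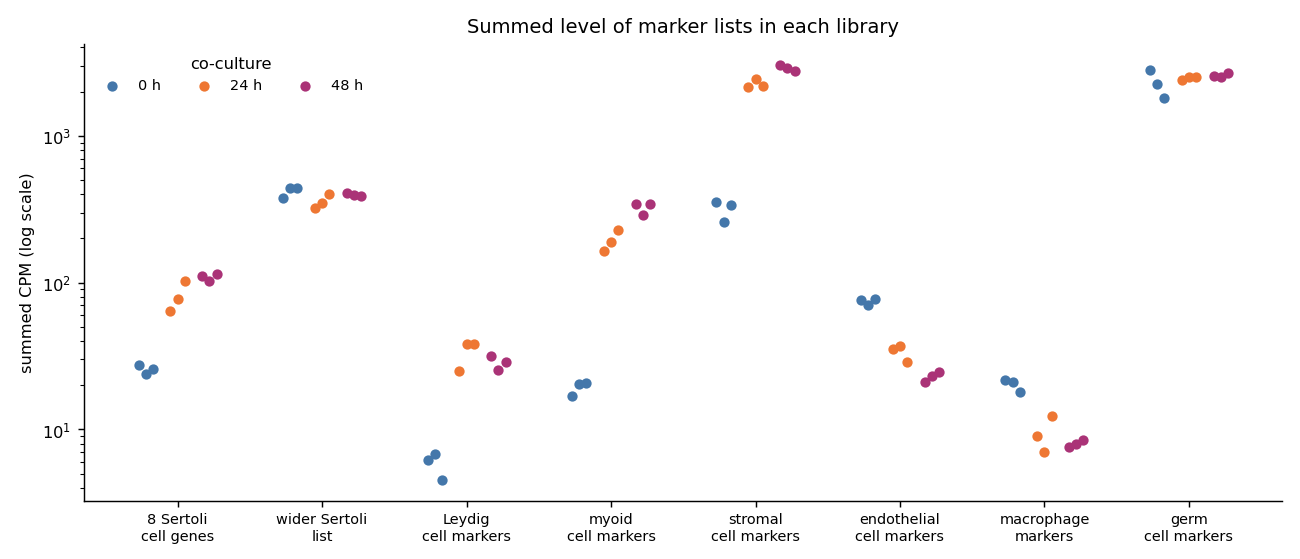
Summed CPM (log scale) of the 8 Sertoli cell genes, the wider Sertoli list and 6 marker lists of other cell types, with 1 point for each of the 9 libraries, coloured by time. The myoid and stromal sums rise from 0 h to 48 h, the germ cell sums stay between 1820 and 2801.8 CPM, and the wider Sertoli list lies between 325 and 443 CPM.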

How the data were processed

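Poly-A RNA of 9 libraries was sequenced by the authors on an Illumina NovaSeq instrument, and the deposited values are raw counts per gene, without normalization. The submitters' processing notes name fastp, HISAT2, featureCounts and the build GRCm38, and their versions and the strand setting are not given in the sources used here. Symbols, positions and exon lengths came from GENCODE release M21, which held 45143 of the 46078 identifiers, and the other 935 made up 0.121% of a library's counts or less. All 9 columns were mapped to samples by name.

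Each pair of time points was fitted on its 6 libraries with edgeR 4.0.16 in R 4.3.3 (filterByExpr, TMM, two-sided quasi-likelihood test, no covariate), with Benjamini-Hochberg adjustment over all genes tested and a threshold of 0.05. The authors used DESeq2, which was run as an alternative (1.42.0). The other alternatives were DESeq2's size factors, library size alone, no filter, a filter of 10 counts per library, a single fit of all 9 libraries, a block for the replicate number, and leaving out each library. CPM are TMM-normalized over the 9 libraries, log2 CPM used a prior count of 2, and the floor was 3 counts a library. Intervals are 95% and, for count ratios, exact and for counting error only. Length-scaled levels used the union of exons, or the longest transcript. The procedure was tested on simulated data.

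The 8 genes, the lists and the tests were chosen with earlier results of these data known. Named are all 8 genes, the 3 genes most correlated with each, genes whose exons overlap them (there were 0), and a selection from each list. The plan was to name up to 8 of the most abundant and called genes of a list. More than 8 were named of the wider Sertoli list and of the AMH signalling genes. Sf3a2 and the list genes near 0 counts were named after their values were seen. Figures were drawn with matplotlib 3.10.9.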

Additional observations from a re-analysis of the deposited data

How the results depend on the processing

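The count of called genes among the 8 stayed within 1.5 times of the reported one under all 13 alternatives in each comparison. This total hides the direction. From 0 h to 24 h, 6 were called higher and 2 lower, but 6 and 0 without 24 h replicate 1 or without 24 h replicate 2. For the wider Sertoli list, 16 of 17 tested genes were called from 0 h to 48 h with at least 10 counts in every library, against 25 of 27, where fewer genes were tested. From 24 h to 48 h, 12 of its genes were called with no filter and 3 in 1 fit over all 9 libraries, against 7, and the cause of the last was not tested. The log2 fold change of Aard from 24 h to 48 h, not called, changed sign without 24 h replicate 1 (-0.06), 24 h replicate 2 (-0.11) or 48 h replicate 2 (-0.04), with a range of -0.11 to 0.41 over the libraries left out. For single genes, 124 of 144 results kept direction and call when a library was left out, 16 lost the call, 1 gained it and 3 changed sign, and 159 of 164 did so under other settings. The fall of Amh from 24 h to 48 h was called under all 13 alternatives, at -3.17 to -2.48 when a library was left out.

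The labels do not say whether same-numbered libraries belong together. Their deviations from the group means correlated with r of -0.36 to 0.262. With 3 libraries per group these deviations depend on each other, so they cannot decide whether libraries were paired. With the replicate block, Amh changed by 5.47 from 0 h to 24 h and by -2.79 from 24 h to 48 h, both called, and Amhr2 lost its call from 0 h to 24 h (-0.94, adjusted p = 0.0978). All genes called from 0 h to 24 h numbered 4494, and 3007 with the block.

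The depth limits Amh and Cldn11 at 0 h most, and with at least 10 counts in every library neither gave a value against 0 h. Calls over all genes ranged from 2607 to 6023, 3471 to 7116 and 1857 to 4356 in the 3 comparisons when a library was left out, and 1 fit over all 9 libraries called 1043 from 24 h to 48 h.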
